A study of Homo sapiens with 8 samples.

Results

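The 10 mRNAs described here, COX1, COX2, COX3, ATP6, CYTB, ND1, ND2, ND4, ND5 and ND6, are transcribed from the mitochondrial genome and were taken by symbol from the FPKM tables of the series. All 10 were found among the 17076 genes listed. The series holds 8 libraries of poly(A)-selected RNA from Huh7, a human hepatocellular carcinoma cell line, in 4 groups of 2. In 1 experiment cells received a control siRNA (siControl) or siRNA against UPF1 (siUPF1). The study lists 2 siRNAs against UPF1, and the labels do not say which each siUPF1 library received. In the other experiment cells received an empty MYC-tag vector (MYC) or a vector for MYC-tagged UPF1 (MYC-UPF1). All 4 groups are thus transfected cells of a single line, and no group is untransfected. UPF1 is the RNA helicase at the centre of nonsense-mediated mRNA decay, and the study asked how its depletion and its overexpression change the transcriptome. No label says that the replicates of a group were separate cultures, so the p-values below measure only the spread between these libraries. FPKM carries no read count, and the depth behind each value is unknown.

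Human mitochondrial DNA is a small circle, present in many copies per cell, that encodes mRNAs for core subunits of the respiratory chain together with the rRNAs and tRNAs of the organelle's own ribosome. Both strands are transcribed by the mitochondrial polymerase POLRMT into long precursors, and most mRNAs are freed when the tRNAs between them are cut out. ND1, ND2, ND4, ND5 and ND6 belong to complex I, the NADH dehydrogenase. CYTB belongs to complex III, COX1, COX2 and COX3 to complex IV, the cytochrome c oxidase, and ATP6 to complex V, the ATP synthase. ND6 is the sole mRNA of the opposite strand. These transcripts do not leave the organelle and are not read by cytosolic ribosomes, where nonsense-mediated decay acts. Most carry a short poly(A) tail, which lets an oligo(dT) library capture them, while ND6 mRNA is known to lack a stable tail.

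The ends of 6 genes are shown because several of these mRNAs need the poly(A) tail to complete their stop codon, and because ND5 and ND6 meet tail to tail. In the lines below each stretch of GRCh37 reference sequence runs 5′ to 3′ on the strand of its gene, and the capitals mark the last bases of the annotated gene, from the stop codon on.
ND1, chrM:4245-4271, plus strand: cattccccctcaaaccTAagaaatatg
ND2, chrM:5494-5520, plus strand: ttatactaataatcttaTagaaattta
COX3, chrM:9973-9999, plus strand: tctattgatgagggtctTactctttta
COX1, chrM:7428-7454, plus strand: gtatacataaaatctAGAcaaaaaagg
ND5, chrM:14131-14157, plus strand: ctactcctaatcacaTAAcctattccc
ND6, chrM:14140-14166, minus strand: attgctcgggggaatAGGttatgtgat
The ND1 gene ends 2 bases past its last whole codon, and ND2, COX3, ND4 and CYTB end 1 base past it. In each of these the stop codon is completed only by the added poly(A) tail. COX1 ends on AGA and ND6 on AGG. ND5 (chrM:12337-14148) and ND6 (chrM:14149-14673) abut tail to tail on opposite strands, so that the bases after the ND6 stop are the complement of the end of ND5. G makes up 35.6% of ND6 and 10.6% of ND5, and C 7.05% and 34.3%. The libraries were made with a stranded kit, but whether strand was used in counting is not given in the sources used here. Without it, the values of ND6 and of the other genes of its strand could hold reads from the opposite strand.

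UPF1 itself moved as the labels say. siControl cells held a mean of 45.9 FPKM ± 2.06 (SD, n = 2), and siUPF1 cells 21.3 FPKM ± 0.839 (SD, n = 2). The log2 fold change was -1.07 (SE 0.093, limma adjusted p = 0.0308). MYC cells held 51.3 FPKM ± 8.65 (SD, n = 2), and MYC-UPF1 cells 2659 FPKM ± 248 (SD, n = 2), for which it was 5.68 (SE 0.11, limma adjusted p = 8.91e-09). Fold changes here and below are differences of log2(FPKM + 1). All 8 hepatocyte and hepatoma markers were listed in every library, led by AFP at 11093 to 12505 FPKM, with ALB at 6550 to 8371 FPKM. Of 10 markers of blood, vessel, connective and squamous cells 4 were listed, and their summed level was 3.85 to 4.9 FPKM per library, most of it CD68.

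One library stood apart in the mitochondrial mRNAs. In siUPF1 replicate 2 the 10 mRNAs had a median of 0.568 times their siControl mean, with ND2 lowest at 0.472 and ND6 highest at 1.047, and 9 of the 10 lay below both siControl libraries. In the same library 1.44% of the 13412 genes tested across all libraries had a ratio as low as that median. This sets a median of 10 against single genes, in a library picked for its low values, and is a description only. In siUPF1 replicate 1 the median was 1.006, from 0.92 for ND2 to 1.096 for ND5. In MYC-UPF1 replicate 2 the median ratio to the MYC mean was 0.791, from 0.668 for ND5 to 0.949 for COX3, and 5.59% of genes were as low. In MYC-UPF1 replicate 1 the median was 1.057. Each comparison with siUPF1 or MYC-UPF1 therefore set 1 library that was low in these mRNAs beside 1 that was not. Tests of the 10 mRNAs are given with and without the low libraries, and counts for other gene lists with all libraries only.

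The mitochondrial mRNAs were among the most abundant transcripts of the cells. By mean FPKM over the 8 libraries COX1 ranked 1st of the 17076 genes, COX3 2nd, ATP6 4th and COX2 5th, while ND6, the lowest of the 10, ranked 54th. FPKM is scaled by length, so levels of mRNAs with a poly(A) tail are set side by side on this scale. FPKM does not correct for differences between mRNAs in tail, capture or GC content, so their order is approximate. ND6 lacks a stable tail and may hold reads from the opposite strand, so its low value need not mean low abundance. In siControl the order was COX3 (12670 FPKM), COX1 (11731), ATP6 (11230), COX2, ND4, ND2 (5957), ND1 (3523), CYTB, ND5 (1557) and ND6 (834). COX3 and COX1 overlapped between the siControl libraries, as did COX1 and ATP6, and each later neighbour in that order was separated. COX1 stood above COX3 in siUPF1 replicate 2 and in all 4 plasmid libraries, and below it in the other 3 libraries. From ND4 downwards the order was the same in all 8 libraries.

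**Figure D1:**
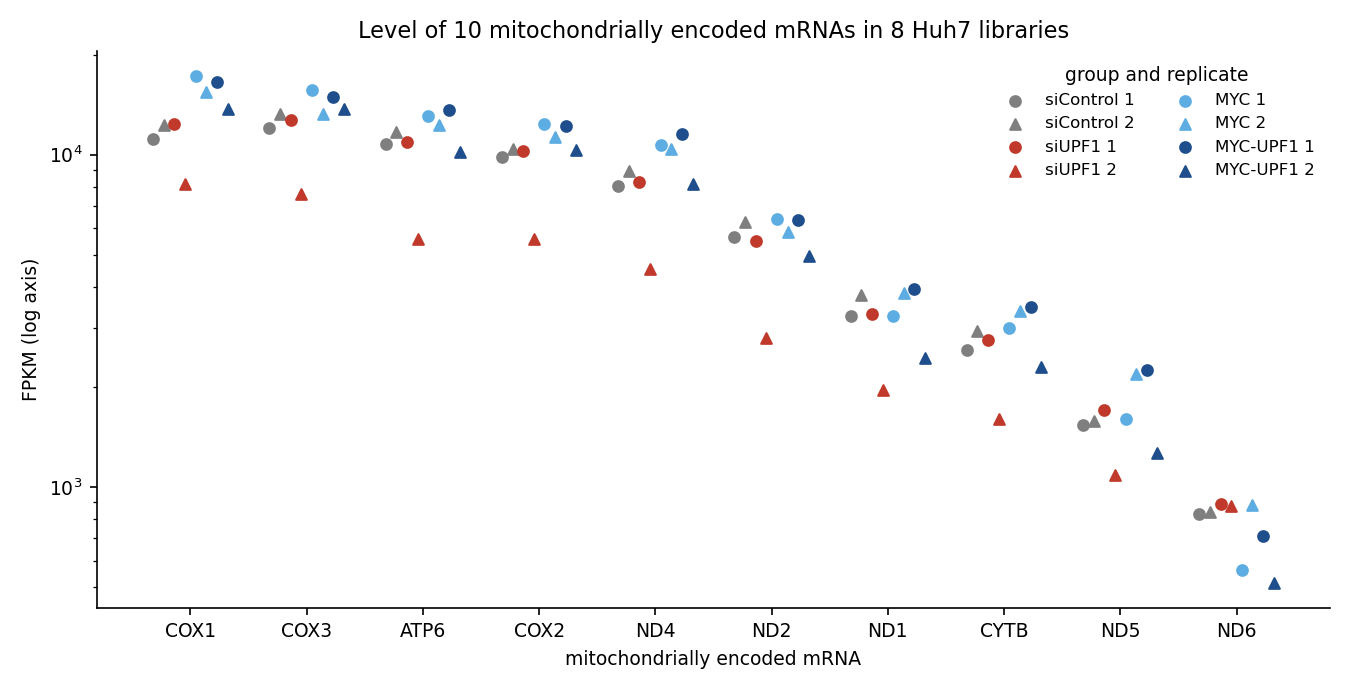
FPKM (log axis) of the 10 mitochondrially encoded mRNAs in each of the 8 libraries, 1 point per library, coloured by group, with circles for replicate 1 and triangles for replicate 2. siUPF1 replicate 2 (red triangles) is the lowest library for every mRNA except ND6, where it lies at 874 FPKM among the siRNA libraries.

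The 10 mRNAs held 15.2% and 15.8% of all summed FPKM in siControl, 15.4% and 9.84% in siUPF1, 18.6% and 17.4% in MYC, and 18.9% and 15.8% in MYC-UPF1. siUPF1 replicate 2 was the lowest of the 8, and the other siUPF1 library lay between its controls. The mean share was 15.51% ± 0.418 (SD, n = 2) in siControl and 12.64% ± 3.95 (SD, n = 2) in siUPF1, and it was 18% ± 0.854 (SD, n = 2) in MYC and 17.35% ± 2.15 (SD, n = 2) in MYC-UPF1. Neither difference from the control exceeded the spread of the treated libraries. The FPKM of all other genes summed to 364145 in siUPF1 replicate 2, within the 359507 to 383583 of the other libraries. With each gene weighted by its length, closer to a share of reads, the 10 mRNAs held 4.73% in siUPF1 replicate 2 and 7.64% to 9.82% in the others. In bulk RNA, fewer mitochondrial genomes and less RNA from each cannot be told apart.

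**Figure D2:**
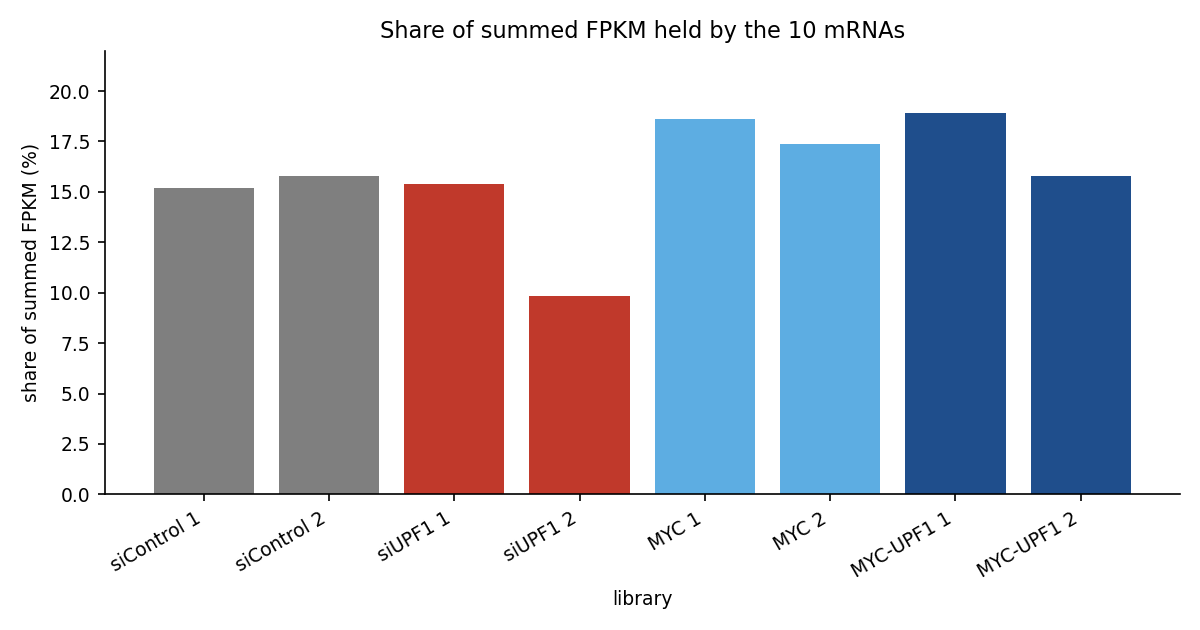
Share of summed FPKM (percent, axis from 0) held by the 10 mitochondrially encoded mRNAs, 1 bar per library, coloured by group. The bar of siUPF1 replicate 2 reaches 9.84%, and the other 7 lie between 15.2% and 18.9%.

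UPF1 depletion was compared first, siUPF1 against siControl. The mean of 9 of the 10 mRNAs was lower in siUPF1, but none passed the limma test at an unadjusted p of 0.05, at which 21.5% of the 13535 genes tested were called (16% higher and 5.51% lower), nor after adjustment, at which 0.0369% were. In a fit that paired libraries by replicate number, ND2 passed at the unadjusted threshold, beside 19.1% of all genes. With a crossed pairing, added after seeing the data, ND1, ND2, ND4 and ATP6 did, beside 22.9%, and no member passed after adjustment in either. The median log2 fold change of the 10 was -0.4, against 0.057 for all genes tested. Over all genes 2162 rose and 746 fell at the unadjusted threshold, a split that came to 1417 and 1408 after quantile normalization and to 1602 and 1271 after median centring.

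Among the complex I mRNAs, ND2 had the largest difference. It measured 5663 and 6251 FPKM in siControl, and 5481 and 2812 FPKM in siUPF1, a log2 fold change of -0.60 (SE 0.28, limma adjusted p = 0.261). ND2 was the sole member below both controls in both siUPF1 libraries, though replicate 1 lay just under the lower of them; groups did not overlap in this direction for 18.5% of genes. ND4 measured 8045 and 8955 FPKM in siControl, and 8253 and 4515 FPKM in siUPF1. ND1 measured 3264 and 3783 FPKM in siControl, and 3321 and 1957 FPKM in siUPF1. For both, replicate 1 lay between the controls and replicate 2 far below them. ND5 measured 1538 and 1575 FPKM in siControl, and 1706 and 1083 FPKM in siUPF1, so that its siUPF1 libraries fell on either side of the controls. ND6 differed from all of these. It measured 826 and 843 FPKM in siControl, and 886 and 874 FPKM in siUPF1, a log2 fold change of 0.076 (SE 0.091, limma adjusted p = 0.637). The siUPF1 libraries were both above the siControl libraries, as in 37.5% of genes, and the difference was smaller than its SE.

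The mRNAs of complexes III, IV and V had the same arrangement. CYTB, a haem-bearing subunit of complex III, measured 2581 and 2940 FPKM in siControl, and 2774 and 1604 FPKM in siUPF1. COX1, the catalytic subunit of complex IV, measured 11168 and 12293 FPKM in siControl, and 12406 and 8143 FPKM in siUPF1, a log2 fold change of -0.22 (SE 0.19, limma adjusted p = 0.515). COX2, which takes electrons from cytochrome c, measured 9868 and 10410 FPKM in siControl, and 10224 and 5578 FPKM in siUPF1. COX3 measured 12052 and 13289 FPKM in siControl, and 12756 and 7611 FPKM in siUPF1. ATP6, part of the proton channel of complex V, measured 10789 and 11671 FPKM in siControl, and 10925 and 5581 FPKM in siUPF1, a log2 fold change of -0.52 (SE 0.28, limma adjusted p = 0.314). Again replicate 1 was close to the controls and replicate 2 low in each.

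Leaving out a library decided these values. Without siUPF1 replicate 2 the log2 fold changes ran from -0.12 for ND2 to 0.13 for ND5 and 0 of 10 passed at the unadjusted threshold, beside 21.7% of all genes. Without siUPF1 replicate 1, where the remaining library is assumed to vary like the controls, 9 of 10 passed, from -0.52 for COX1 and ND5 to -1.1 for ND2, and ND6 did not. In that fit 43.7% of all genes passed too, and 33.6% after adjustment.

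In the 3 other mitochondrial mRNAs siUPF1 replicate 2 was low as well. ATP8, which shares 46 bases with ATP6, measured 7726 and 8672 FPKM in siControl, and 8084 and 4288 FPKM in siUPF1. ND3 was at 0.433 times its siControl mean in siUPF1 replicate 2 and ND4L at 0.62. The rRNAs RNR1 and RNR2, which share the strand of most mRNAs, were at 0.8 and 0.803 times their siControl mean in that library. The 14 tRNA genes of that strand had a median ratio of 0.667 and the 8 tRNA genes of the ND6 strand 0.988. Of the latter, TRNN (1.46), TRNC, TRNP and TRNA were above their siControl mean, and TRNQ, TRNY, TRNE and TRNS1 (0.637) below it. TRNS1 itself varied between the controls, with 710 and 2264 FPKM. In siUPF1 replicate 1 the medians of these tRNA sets were 0.929 and 0.998. A tRNA gene is shorter than a usual cDNA fragment, so its value cannot be told apart from precursors and neighbouring transcripts. Pseudogene copies of these genes lie in the nuclear genome, and the 2 of 24 that were listed, MTRNR2L2 and MTRNR2L8, summed to at most 0.234 FPKM.

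**Figure D3:**
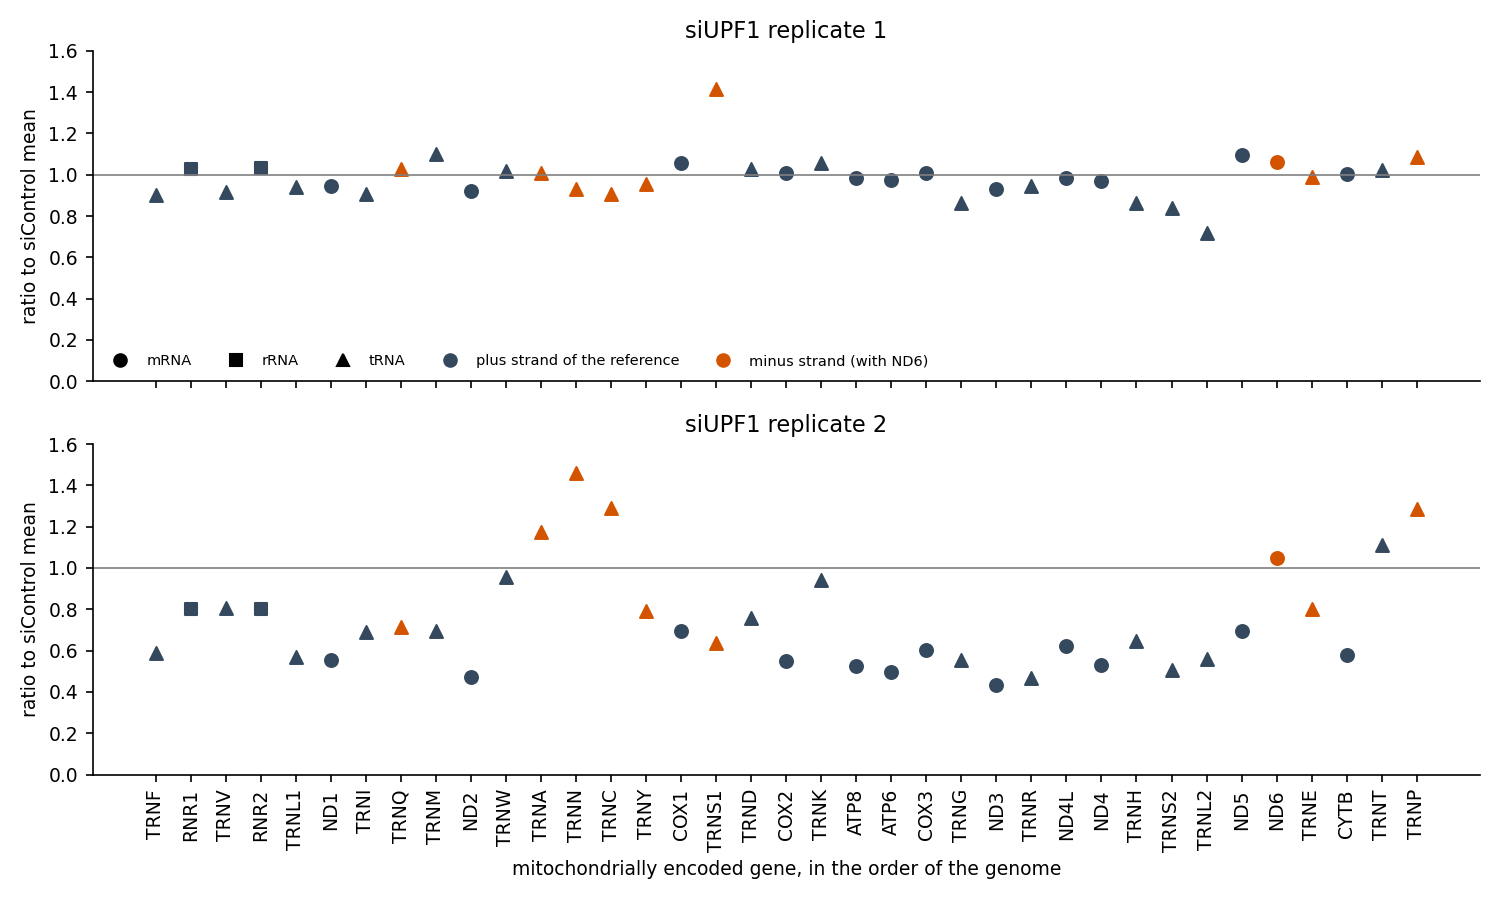
Ratio of each siUPF1 library to the siControl mean for the 37 mitochondrially encoded genes, in the order of the genome, with replicate 1 above and replicate 2 below; circles are mRNAs, squares rRNAs and triangles tRNAs, and orange marks the strand of ND6. In replicate 1 most points lie near 1, and in replicate 2 the mRNAs lie at 0.433 to 0.695 except ND6 at 1.047, with the rRNAs near 0.8.

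UPF1 overexpression was compared next, MYC-UPF1 against MYC. All 10 mRNAs had a lower mean in MYC-UPF1, by log2 fold changes of -0.006 for COX3 to -0.22 for ND6, and the groups overlapped for each, while they did not for 20.7% of genes. None passed the limma test at an unadjusted p of 0.05, at which 1.43% of the 13251 genes tested were called, or after adjustment, at which 0.00755% were. In a fit that paired libraries by replicate number, CYTB, ND1 and ND6 passed at the unadjusted threshold, beside 1.28% of all genes. With a crossed pairing, added after seeing the data, ND1 and ND6 did, beside 9.26%, and no member passed after adjustment in either. The median of the 10 was -0.12, against -0.014 for all genes tested. ND1 measured 3265 and 3840 FPKM in MYC, and 3931 and 2448 FPKM in MYC-UPF1. ND5 measured 1602 and 2185 FPKM in MYC, and 2251 and 1265 FPKM in MYC-UPF1. COX1 measured 17236 and 15409 FPKM in MYC, and 16549 and 13767 FPKM in MYC-UPF1. For ND1 and ND5 MYC-UPF1 replicate 1 was the highest of the 4 plasmid libraries and replicate 2 the lowest. Without MYC-UPF1 replicate 2 all 10 log2 fold changes were positive, up to 0.27 for ND5, with ND1, ND4 and ND5 past the unadjusted threshold, as were 1.73% of all genes, and none past the adjusted one. Without MYC-UPF1 replicate 1 all 10 were negative, down to -0.56 for ND5, and 9 passed at the unadjusted threshold and 8 after adjustment, beside 3.56% and 0.475% of all genes. The test of the difference between the effects of depletion and of overexpression called 0 of 10 members at the unadjusted threshold, at which 15.2% of genes were called, and 0 after adjustment, at which 0.0224% were.

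The empty-vector and control-siRNA libraries were then compared, MYC against siControl, as a measure of how far the background of the 2 experiments differed. Here 7 of the 10 mRNAs were higher in MYC after adjustment, where 10.8% of the 13359 genes tested were called higher and 18.3% lower. For 6 of them, all but COX3, both MYC libraries were above both siControl libraries, as for 25.6% of genes. The largest difference in the main fit was that of COX1, with a log2 fold change of 0.48 (SE 0.058, limma adjusted p = 8.99e-06). ND5 was above COX1 without MYC replicate 1 (0.49 against 0.40) and after quantile normalization (0.31 against 0.15). ND4 rose by 0.31 (SE 0.056), ND5 by 0.27 (SE 0.093), COX2 by 0.22 (SE 0.055), CYTB by 0.21 (SE 0.07), COX3 by 0.18 (SE 0.064) and ATP6 by 0.17 (SE 0.053) on the log2 scale. ND5 was at 0.042 without MYC replicate 2, and CYTB at 0.13 without that library and at 0.12 without siControl replicate 1. COX3 was at 0.063, ATP6 at 0.13 and COX2 at 0.15 without MYC replicate 1. Without siControl replicate 1 COX3 and ATP6 were both at 0.11. None of these was then called after adjustment. COX3 overlapped between the groups, with 13222 FPKM in MYC replicate 2 below the 13289 FPKM of siControl replicate 2. ND1, ND2 and ND6 were not called, at log2 fold changes of 0.011, 0.042 and -0.24. ND6 was called lower after adjustment with a mean of at least 5 FPKM, with the replicate block and without MYC replicate 2, where it was at -0.57, and stood at 0.083 without MYC replicate 1. At the unadjusted threshold, with 15.4% of genes higher and 25.6% lower, 7 were higher as well, and this number fell to 2 with no filter on low FPKM, to 2 without the mean-variance trend, to 3 after quantile normalization and to 1, COX1, when all 8 libraries shared an estimate of the spread. After quantile normalization COX3 was also called, but lower in MYC, with a log2 fold change of -0.15. The count after adjustment came to 0 with no filter, where 7.67% of all genes were called, and to 0 with all 8 libraries, where 17.7% were. It came to 2 without the trend and to 3 after scaling to the library sum, beside 27.7% and 29.7% of all genes. The 8 hepatocyte and hepatoma markers, which are nuclear, all had positive log2 fold changes too, with 4 called higher after adjustment and a median of 0.28, against 0.2 for the 10 mRNAs. What was transfected and any batch between the experiments cannot be told apart.

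Over all 4 plasmid and all 4 siRNA libraries, only COX1 of the 10 did not overlap, from 13767 to 17236 FPKM against 8143 to 12406 FPKM; 6.96% of genes were higher in all plasmid libraries in this way and 21.4% lower. The other mitochondrial genes went both ways. ND4L was higher in all plasmid libraries, while RNR1, the small rRNA, was lower in all of them, with 1181 to 1450 FPKM against 1646 to 2160 FPKM, and of 22 tRNA genes 10 were lower and 1, TRNY, was higher. In the comparison of MYC with siControl, 4 of the 27 other mitochondrial genes were higher and 22 lower at the unadjusted threshold, beside 15.4% and 25.6% of all genes. Of these, RNR1 had a log2 fold change of -0.61 (SE 0.074, limma adjusted p = 8.82e-06), and the mRNAs ATP8, ND4L and ND3 had 0.28, 0.46 and -0.23, with ND3 lower after adjustment. In depletion, where 16% of all genes rose and 5.51% fell, 0 of the 27 rose and 5 fell at the unadjusted threshold, TRNF, TRNG, TRNH, TRNS2 and TRNL2. In overexpression 0 rose and 5 fell, TRNF, TRNV, TRNH, TRNS2 and TRNL2, while 0.807% of all genes fell. None was called after adjustment in either, and TRNG, TRNH, TRNS2 and TRNL2 were low transcripts, TRNH at 2.5 to 9.82 FPKM.

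Ratios between members within a library are free of library scaling. ND6 stood at 14%, 13.1%, 14.4% and 24.8% of the geometric mean of the other 9 in siControl 1 and 2 and siUPF1 1 and 2. In MYC 1 and 2 and MYC-UPF1 1 and 2 it stood at 7.91%, 12.4%, 9.27% and 9.16%. All 4 plasmid libraries were thus below all 4 siRNA libraries, and siUPF1 replicate 2 was the highest. The mean log2 ratio was -2.644 ± 0.426 (SD, n = 4) in the siRNA libraries and -3.388 ± 0.27 (SD, n = 4) in the plasmid libraries, a difference of -0.74, and of -0.53 without siUPF1 replicate 2. ND5, which faces ND6 tail to tail, was 1.86, 1.87, 1.92 and 1.24 times ND6 in the siRNA libraries, and 2.85, 2.47, 3.16 and 2.45 times ND6 in the plasmid libraries. Again the kinds of transfection did not overlap, and siUPF1 replicate 2 was lowest.

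Members of the same strand also shifted against each other. COX1 was 3.42, 3.25, 3.74 and 4.16 times ND1 in the siRNA libraries, and 5.28 and 4.01 times in MYC and 4.21 and 5.62 times in MYC-UPF1. COX3 was 4.52 to 4.75 times CYTB in the siRNA libraries, and 5.19, 3.91, 4.28 and 5.98 times in MYC 1, MYC 2, MYC-UPF1 1 and MYC-UPF1 2. MYC replicate 1 and MYC-UPF1 replicate 2 were high in both ratios, and the other plasmid libraries lower, so these ratios varied more within the plasmid groups than between them. The libraries also differed in a property of all genes. The rank correlation across genes between a gene's deviation from its mean and its GC content was -0.024 in MYC replicate 1 and -0.237 in MYC-UPF1 replicate 2, and 0.683 and 0.513 in the other plasmid libraries. In the siRNA libraries it was -0.56 and -0.567 in siControl, -0.327 in siUPF1 replicate 1 and 0.401 in siUPF1 replicate 2. Low values thus went with the higher ratio of COX1 to ND1 in the plasmid libraries and with the lower one in siControl. With a correction for GC content and length, 8 of 10 members were higher in MYC than in siControl at the unadjusted threshold, as were 19.3% of all genes, COX1 by 0.65 on the log2 scale, and ND6 turned from -0.24 to 0.041. In siUPF1 against siControl the same correction gave log2 fold changes from -0.53 for ND2 to 0.16 for ND6, beside -0.60 and 0.076 without it. COX1 was at -0.21 and ATP6 at -0.46, and 0 of the 10 members were called at the unadjusted threshold, beside 22.3% of all genes. The part of GC content in the differences between single libraries was not tested.

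**Figure D4:**
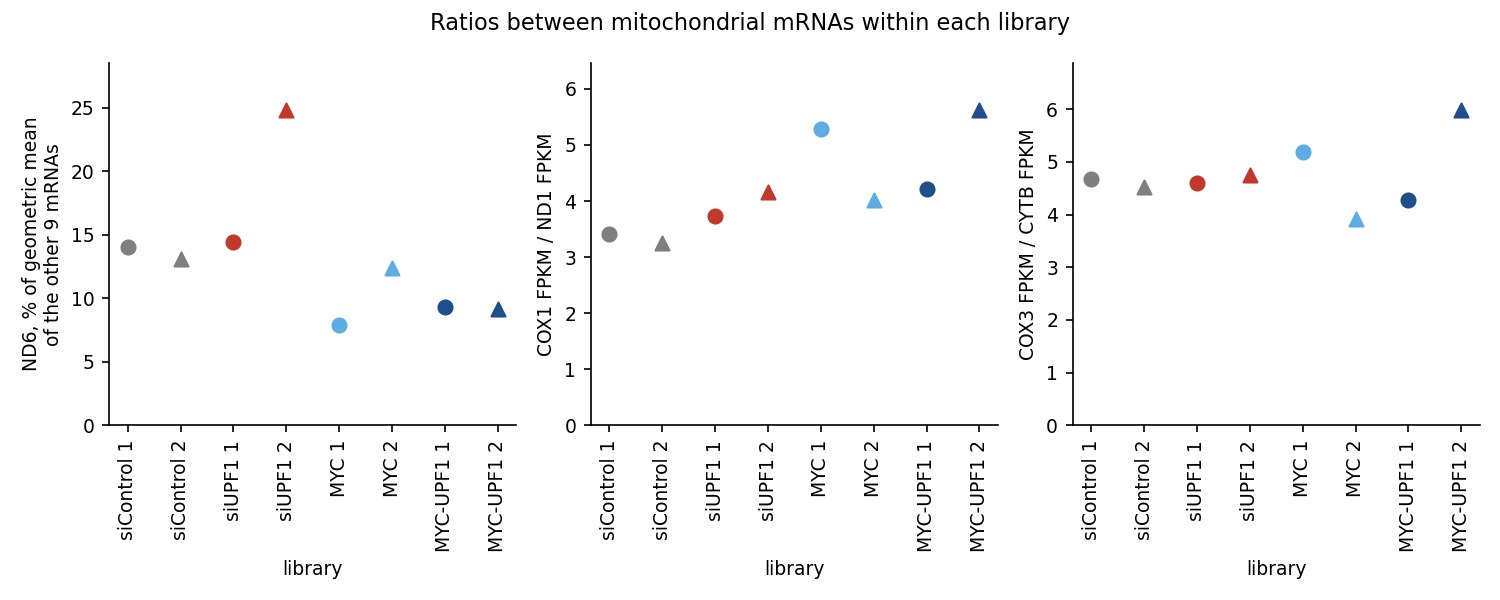
Ratios of FPKM between mitochondrial mRNAs within each library (axes from 0), 1 point per library, coloured by group, with circles for replicate 1 and triangles for replicate 2. ND6 relative to the other 9 is highest in siUPF1 replicate 2 (24.8%) and at most 12.4% in the plasmid libraries, and the ratios of COX1 to ND1 and of COX3 to CYTB are highest in MYC-UPF1 replicate 2.

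Across the 8 libraries 9 of the 10 mRNAs were positively correlated, though not within each group: between MYC replicates 1 and 2 the ratio was 1.181 for COX3 and 1.119 for COX1 but 0.85 for ND1 and 0.733 for ND5. The mean Pearson correlation of each of the 9 with the other members was 0.702 (COX1) to 0.816 (CYTB) on log2 FPKM, and for ND6 it was -0.206. ATP6 and COX2 were closest, at 0.989. These points share library scaling and siUPF1 replicate 2, and the values are a description. Of the 7743 other genes with a mean of at least 5 FPKM, those most like the summed 10 mRNAs were ATP8 (0.996), TSPAN7 (0.985), EI24 (0.979), NOA1 (0.958), a GTPase of the mitochondrial ribosome, and ND4L (0.955). TSPAN7 measured 12.5 and 13.4 FPKM in siControl and 13.2 and 9.24 FPKM in siUPF1, and 12.2 to 14.1 FPKM in the plasmid libraries, so siUPF1 replicate 2 was its lowest library too.

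Most respiratory chain subunits are encoded in the nucleus and built together with the mitochondrial ones. The 76 nuclear subunits of complexes I to V had a median ratio of 0.941 to siControl in siUPF1 replicate 2, beside 0.568 for the 10 mitochondrial mRNAs, and of 1.004 in siUPF1 replicate 1. In the comparison of siUPF1 with siControl 2 of the 76 rose and 5 fell at the unadjusted threshold, where 16% of all genes rose and 5.51% fell, and none was called after adjustment. The median log2 fold change was 0.01 for 37 nuclear complex I subunits against -0.46 for ND1, ND2, ND4, ND5 and ND6, and -0.11 for 11 nuclear complex IV subunits against -0.36 for COX1, COX2 and COX3. NDUFA2 (0.27) and UQCR11 (0.30) rose, and NDUFB3 (-0.33), ATP5F1C (-0.30), UQCRB (-0.29), UQCRQ (-0.27) and SDHB (-0.22) fell on the log2 scale. Without siUPF1 replicate 2, UQCR11 (0.19), ATP5F1C (-0.13) and SDHB (-0.17) were no longer called, and NDUFB3 was at -0.21. In MYC-UPF1 against MYC, 0 of the 76 were called in either direction at the unadjusted or the adjusted threshold of limma, beside 1.43% and 0.00755% of all genes.

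**Figure D5:**
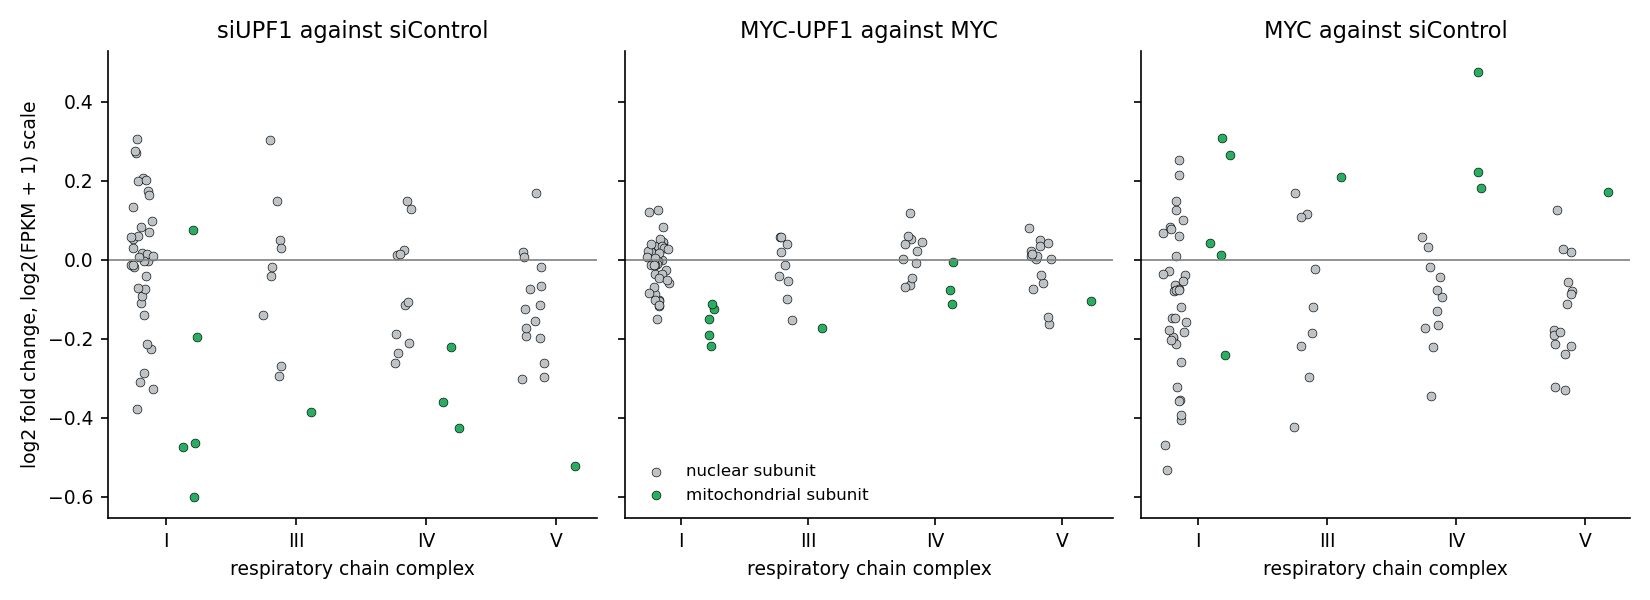
Log2 fold change on the log2(FPKM + 1) scale of respiratory chain subunits by complex in 3 comparisons, 1 point per gene, grey for nuclear and green for the 10 mitochondrial genes. In siUPF1 against siControl the medians of complex I are 0.01 for nuclear and -0.46 for mitochondrial subunits, and in MYC against siControl COX1 is the highest point at 0.48.

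Of the nuclear genes that make and process mitochondrial RNA, 3 were called with UPF1 depletion, all of them lower, where 16% of all genes rose and 5.51% fell. Of 9 genes of mitochondrial transcription 0 rose and 1 fell in siUPF1 at the unadjusted threshold, the elongation factor TEFM, which measured 8.08 and 8.83 FPKM in siControl and 6.55 and 5.71 FPKM in siUPF1, a log2 fold change of -0.41 (SE 0.1, limma adjusted p = 0.116). POLRMT measured 24.1 and 25.2 FPKM in siControl and 26.1 and 36.4 FPKM in siUPF1 and was not called. TFAM, which packages the mitochondrial genome and starts its transcription, was at 14.3 and 15.7 FPKM in siControl and 15.7 and 12.9 FPKM in siUPF1. Of 21 genes of mitochondrial RNA processing and decay 0 rose and 2 fell, FASTKD3 (-0.46) and the exonuclease REXO2 (-0.23). Without siUPF1 replicate 2 FASTKD3 was at -0.22, and REXO2, at -0.15, was no longer called. LRPPRC and SLIRP, the complex that protects mitochondrial mRNAs, PNPT1 and SUPV3L1, which degrade mitochondrial RNA, and the poly(A) polymerase MTPAP had log2 fold changes of -0.12 to -0.05 and were not called.

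In the same comparison, with 16% of all genes higher and 5.51% lower, 3 of 13 genes of mitochondrial DNA maintenance rose and 0 fell, with the topoisomerase TOP1MT at 0.38 and the kinase DGUOK at 0.30. Of 79 mitochondrial ribosomal protein genes 3 rose and 6 fell, with MRPL10 (0.55) and MRPS18A (0.31) up and MRPL19 (-0.37) and MRPL42 (-0.36) down. Of 13 translation factors 1 rose, TACO1 (0.25), which activates COX1 translation, and 0 fell. Of 8 biogenesis regulators tested 0 rose and 1 fell, YY1 (-0.26), and 0 of 12 markers of mitochondrial content were called. Without siUPF1 replicate 2, TOP1MT (0.18), MRPL42 (-0.19) and TACO1 (0.18) were no longer called, and MRPL19 was at -0.24. After adjustment 0 genes of these lists were called by limma with all libraries, beside 0.0369% of all genes. In MYC-UPF1 against MYC 0 genes of all these lists passed at the unadjusted threshold of limma, at which 1.43% of all genes did.

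In MYC against siControl most of these lists held more lower than higher genes at the unadjusted threshold, where 15.4% of all genes were higher and 25.6% lower. The list of DNA maintenance did not, with 4 of 13 higher and 2 lower. After adjustment 1 of these 13 was higher and 2 were lower, beside 10.8% and 18.3% of all genes, and 8 of the 13 log2 fold changes were negative. Of 8 biogenesis regulators 1 was higher and 2 were lower at the unadjusted threshold, with a median log2 fold change of 0.012. Of the 76 nuclear subunits 3 were higher and 27 lower at the unadjusted threshold, with NDUFB5 (-0.53) and NDUFA5 (-0.47) lowest in complex I, UQCRQ (-0.42) in complex III, COX5A (-0.34) in complex IV and ATP5PD (-0.33) in complex V. Of 79 mitochondrial ribosomal protein genes 2 were higher and 36 lower, led by MRPS10 (-0.63) and MRPL1 (-0.56). Of 9 transcription genes 1 was higher, POLRMT (0.37), and 5 lower, with MTERF2 (-0.50) and MTERF1 (-0.43) lowest. Of 21 RNA processing genes 0 were higher and 7 lower, with FASTKD1 (-0.53) and REXO2 (-0.34) lowest. The GC and length correction brought POLRMT to 0.032, MTERF1 to -0.12, REXO2 to -0.13, NDUFA5 to -0.14 and ATP5PD to -0.091, none of them then called, and it brought MTERF2 to -0.21, FASTKD1 to -0.27, MRPL1 to -0.20, MRPS10 to -0.39, NDUFB5 to -0.31, UQCRQ to -0.27 and COX5A to -0.14. Of all genes tested 2052 were higher and 3416 lower, a split that turned to 3180 and 2276 after median centring and came to 2763 and 2709 after quantile normalization.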

How the data were processed

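Per the labels and methods, RNA was extracted with Trizol, libraries were made with a TruSeq Stranded mRNA kit and sequenced as paired ends, reads were aligned with HISAT2 2.1.0 to hg19, and the authors deposited StringTie 1.3.4d FPKM values per gene; FastQC 0.11.7, Trimmomatic 0.38 and CASAVA are also in the submitters' processing notes. The deposited tables list 17076 genes, none at 0 FPKM in any library. Ratios of low values between libraries gave no common step (at most 1.41% of 638 genes below 0.1 FPKM shared a ratio), so reads and depth could not be recovered. Which mitochondrial sequence the authors' hg19 held is not given in the sources used here. Coordinates and sequences are from GRCh37 with GENCODE 44 mapped to it, with a mitochondrial genome of 16569 bases.

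Genes with a mean of at least 0.5 FPKM over the libraries of a fit were tested on log2(FPKM + 1) with limma 3.58.1 (R 4.3.3; lmFit, eBayes with trend), called at p of 0.05, unadjusted and Benjamini-Hochberg adjusted over all genes tested. Shares and ratios of members, planned with permutation tests, were given without p-values, since the members were chosen with results known; 2 against 2 libraries also could not go below 0.333. Members, gene lists and tests were chosen with earlier results of these data known. Named nuclear genes were, in each list and comparison, the 2 of largest rise and 2 of largest fall among those past the unadjusted threshold whose groups did not overlap, plus POLRMT, TFAM, LRPPRC, SLIRP, PNPT1, SUPV3L1 and MTPAP, and the 5 genes outside the members most correlated with their sum; of those for the comparison of the controls a part is printed. ATP8, ND3, ND4L, the rRNAs, the tRNA genes named and the 2 ratios of same-strand members were chosen after their values were seen. The fit was tested on simulated data first. At the unadjusted threshold a log2 change of 0.5 was recovered in 91.5% of changed genes in depletion, 88.5% in overexpression and 91% in the controls. After adjustment it was recovered in 0% in each, so a lack of adjusted calls says little about changes of that size. A log2 change of 1 was recovered after adjustment in 70.1%, 62.1% and 68%. Alternatives were another pseudocount, other FPKM filters, other scalings, a GC and length correction, no trend, a replicate block, all 8 libraries together, and each library left out.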

Additional observations from a re-analysis of the deposited data

Results flagged for a closer look

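UPF1 was flagged because depletion and overexpression moved it in opposite directions, a difference of the effects of -6.75 on the log2 scale (limma adjusted p = 2.89e-08), as the design sets. Of the 60 genes considered, a further 7, all nuclear, were flagged because each siUPF1 library lay on one side of both siControl libraries and each MYC-UPF1 library on the other side of both MYC libraries, as in 7.57% of the 13412 genes tested. Their differences of the effects were 0.59 for TOP1MT, 0.36 for UQCR11, -0.33 for UQCRQ, 0.20 for MRPS24, 0.35 for NDUFS7, 0.39 for NDUFV1 and -0.23 for COX7A2 on the log2 scale. The 60 were the 10 mRNAs, UPF1 and the nuclear genes named from the lists. Most of these nuclear genes, with all 7 flagged, had been picked for calls and non-overlapping groups in comparisons of these same libraries. The share over all genes, which were not picked in this way, is thus no fair background for the 7. The flag picks genes whose effects differ, so a test of that difference is no separate evidence for these 7. By the limma test of the difference 5 of them passed at the unadjusted threshold, all but MRPS24 and COX7A2, where 15.2% of all genes did. None passed after adjustment, where 0.0224% of all genes did, with adjusted p from 0.211 for TOP1MT to 0.409 for MRPS24. None of the 10 mitochondrial mRNAs was flagged in this way. Groups of 2 libraries are too small for a test of outlying samples, so siUPF1 replicate 2 was described and not tested.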

How the results depend on the processing

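In depletion ND1, ND2, ND4, ATP6 and ND6 kept their direction whichever library was left out and the other 5 did not, and in overexpression none of the 10 did. Of the 10, the number past the unadjusted threshold in depletion was 0, and 2 with a mean of at least 5 FPKM, 1 with all 8 libraries in a fit, and 0 to 9 when a library was left out. In overexpression it was 0, and 0 to 9 when a library was left out. In the controls it was 7, and 8 with a mean of at least 5 FPKM and in the GC and length correction, 2 with no filter, 4 (3 higher and COX3 lower) after quantile normalization, 2 without the trend, 1 with all 8 libraries, and 5 to 8 when a library was left out. For the difference of the effects it was 0, and 0 to 8 when a library was left out. Over all genes, a mean of at least 5 FPKM, which leaves fewer genes to test, gave 1862 calls for 2908 in depletion, 49 for 189 in overexpression, 3514 for 5468 in the controls and 1282 for 2041 in the difference. In overexpression no filter gave 409 and the GC and length correction 413; the cause was not tested. Leaving out a library gave 1443 to 5901, 216 to 777, 3134 to 6831 and 1065 to 3376 calls. Replicate numbers did not pair the libraries, since the deviations of same-numbered libraries correlated at -0.123 in siUPF1 and siControl, -0.567 in MYC-UPF1 and MYC and 0.0098 in MYC and siControl. The replicate block called 1 member and 2586 genes in depletion, 3 members and 170 genes in overexpression and 8 members and 5919 genes in the controls, and a crossed pairing, added after seeing the data, called 4 members and 3102 genes and 2 members and 1227 genes.

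The log2 ratio of mean shares was -0.3 in depletion (-0.66 to -0.0074 with a library left out), -0.053 in overexpression (-0.19 to 0.068) and 0.33 for plasmid against siRNA libraries (0.19 to 0.39), and the ND6 difference was -0.74 (-0.87 to -0.53). Quantile normalization sets genes of equal rank to equal values and so gave 0 for COX1 in depletion, for ND2, COX1, COX3 and ND4 in overexpression and for ND2 and ND4 in the controls. In depletion it also brought ND2 to -0.18, COX2 to -0.10, ATP6 to -0.079 and ND4 to -0.055. COX3 came to -0.13, CYTB to -0.21 and ND1 to -0.30, while ND5 was at -0.21 and ND6 at 0.13. In overexpression it brought CYTB to -0.043. Other reversals in overexpression were COX2 at 0.014 after quantile normalization and COX3 at 0.0019 after median centring, 0.03 after scaling to the library sum and 0.019 after scaling without the members. In the controls ND1 was at -0.013 after scaling to the library sum, COX3 at -0.15 after quantile normalization and SUPV3L1 at 0.037, and at 0.062 after median centring. The GC and length correction turned TFAM in depletion to 0.05 and, in the controls, ND6 to 0.041, TFAM to 0.036, LRPPRC to 0.027, PNPT1 to 0.013, SUPV3L1 to 0.12, SSBP1 to 0.026 and SDHD to 0.021, and scaling to the library sum turned SUPV3L1 in depletion to 0.013; the causes were not tested.

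With a library left out, log2 fold changes that changed sign ranged, in depletion, from -0.52 to 0.082 for COX1, -0.86 to 0.012 for COX2, -0.73 to 0.011 for COX3, -0.78 to 0.0099 for CYTB, -0.52 to 0.13 for ND5, -0.2 to 0.068 for TFAM and -0.1 to 0.0061 for SUPV3L1. In overexpression they ranged from -0.53 to 0.15 for ND1, -0.3 to 0.056 for ND2, -0.24 to 0.022 for COX1, -0.19 to 0.042 for COX2, -0.31 to 0.11 for ATP6, -0.13 to 0.11 for COX3, -0.36 to 0.14 for ND4, -0.56 to 0.27 for ND5, -0.54 to 0.11 for ND6 and -0.48 to 0.13 for CYTB. In the controls they ranged from -0.11 to 0.13 for ND1, -0.03 to 0.11 for ND2, -0.57 to 0.083 for ND6, -0.21 to 0.0049 for LRPPRC and -0.066 to 0.025 for SUPV3L1.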
